A study of Mus musculus with 59 samples.

Results

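The 9 genes described here are targets of the transcription factor p53 that act in apoptosis: Fas, Tnfrsf10b, Bax, Bbc3, Pmaip1, Apaf1, Aen, Perp and Trp53inp1. They were chosen by name as genes of this pathway, with earlier results of these data known, out of 37163 genes or transcripts on the array. On it 11 probes carried their accessions (2 each for Aen and Trp53inp1, 1 for each of the others). Adult male Muta™Mouse, a transgenic strain that carries a bacterial lacZ gene for scoring mutations, aged about 16 weeks, received benzo(b)fluoranthene (BbF), a polycyclic aromatic hydrocarbon, in olive oil by gavage each day for 28 days. The low dose was 25 mg/kg-bw/day, the medium 50 and the high 100, vehicle mice received olive oil alone, and lung, liver and forestomach, the part of the rodent stomach lined by stratified squamous epithelium, were taken 72 h after the last dose. Mice 1 to 5 were vehicle, 6 to 10 low, 11 to 15 medium and 16 to 20 high, and the number names 1 animal whichever tissue it is given for. Each of the 12 groups held 5 arrays, apart from low-dose lung with 4, which gave 59 arrays. BbF is the compound of the sample titles and the protocol, whereas benz(a)anthracene stands in an exposure field and in the series' design description. BbF is used here. The RNA came from random sections of each organ. The comparisons ask at which dose and in which tissue the genes of this pathway changed.

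p53 is held at a low level in healthy cells and accumulates after DNA damage, such as that left by the reactive metabolites of polycyclic aromatic hydrocarbons. It then binds DNA as a tetramer and raises the transcription of genes for cell cycle arrest, DNA repair and programmed cell death. Its death targets act at several points. Fas and Tnfrsf10b are receptors at the cell surface that respond to ligands on other cells. Of the BCL-2 family proteins, Bax opens the outer mitochondrial membrane, and Bbc3 and Pmaip1 set off Bax. Apaf1 and Aen act after that step, and Perp and Trp53inp1 are tied to the pathway in other ways.

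The DNA sequence that p53 binds consists of a pair of 10-base half-sites. Promoter windows of 300 bases (250 before a transcription start and 50 after it, RefSeq, GRCm38.p6) were at hand for 5 of the 9 genes, as 8 windows, and were searched for the consensus p53 half-site, which reads alike on both strands. The windows of Bax and Aen held 1 match each, and those of Fas, Bbc3 and Apaf1 held none. No window is given for Tnfrsf10b, Trp53inp1, Pmaip1 and Perp, of which Tnfrsf10b and Trp53inp1 also changed in lung. Whether a match goes with a change in lung can therefore not be read from these windows. Both stretches are shown because Bax and Aen are among the genes that changed in lung. Capitals mark the 10 matching bases, and 10 bases are given on each side.
Bax, chr7:45467080-45467109, minus strand: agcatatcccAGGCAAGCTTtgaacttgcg
Aen, chr7:78895927-78895956, plus strand: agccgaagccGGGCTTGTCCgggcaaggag
The first matching base lay 201 bases before the transcription start of Bax. For Aen it lay 121 bases before the start of one transcript and 11 bases after the start of another. A half-site was present in 8.36% of all 32851 promoter windows, and in the windows of 9.55% of 27025 genes. A full element, 2 half-sites with at most 13 bases between them, was present in 0.0731% of the windows and in none of those of the 5 genes. These matches describe letters in a short window and say nothing of binding.

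Each value below is a log2 ratio of tissue RNA (Cy5) to a reference RNA pooled from 11 mouse cell lines (Cy3) on the same array, and a change is a difference of 2 such values in log2 units. A gene was called when limma's Benjamini-Hochberg adjusted p, over all probes of the comparison, was at most 0.05 and its change at least 1.5-fold. The number of arrays limits the precision. Between 44.7% and 68.8% of probes were well above background on the lung arrays, 39.6% to 51.9% on the forestomach arrays and 37.0% to 46.1% on the liver arrays of slides 1 and 2. On the 8 liver arrays of slide 3 the share was 10.71% to 12.88%. That slide carried mouse 5 (vehicle), mice 6 and 10 (low), 11 and 15 (medium) and 18, 19 and 20 (high), so the liver results are given with and without it. The lung markers Sftpc and Scgb1a1, the liver markers Alb and Apoa2 and 4 keratins of stratified epithelium were highest in the labelled tissue as a mean of each list. One lung array (low dose, mouse 6) also held the keratins, at a mean of 3.82 against -0.79 to -0.65 on the other low-dose lungs, and is taken up with Perp.

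In lung, 4 of the 9 genes rose at every dose: Bax, Aen, Tnfrsf10b and Trp53inp1. At the high dose they were 2.72-fold, 2.86-fold, 2.98-fold and 2.20-fold above vehicle. The other 5 (Fas, Bbc3, Pmaip1, Apaf1 and Perp) were not called at any dose. Among all 37163 genes, the calls in either direction came to 0.433% (low), 0.584% (medium) and 1.77% (high). The median change of the 9 genes was 0.54, 0.43 and 0.26 at the 3 doses, beside 0.0011, -0.0012 and -0.0021 over all genes. That median was the value of an uncalled gene, Pmaip1 at the low and medium doses and Bbc3 at the high dose. Each of the 4 called genes had its largest change at the high dose. In each of the 4 genes every treated mouse lay above every vehicle mouse at each dose, as the plot of lung values by dose shows. The share of all genes separated in this way was not counted, here or for the separated groups described below. Within the 3 lung slides, the high-dose mice exceeded the vehicle mice of the same slide by 0.92 to 1.63 for Bax, 1.18 to 1.65 for Aen, 1.18 to 1.67 for Tnfrsf10b and 0.86 to 1.29 for Trp53inp1. In bulk tissue a change in the number of cells of a type and a change of RNA per cell cannot be told apart.

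**Figure D1:**
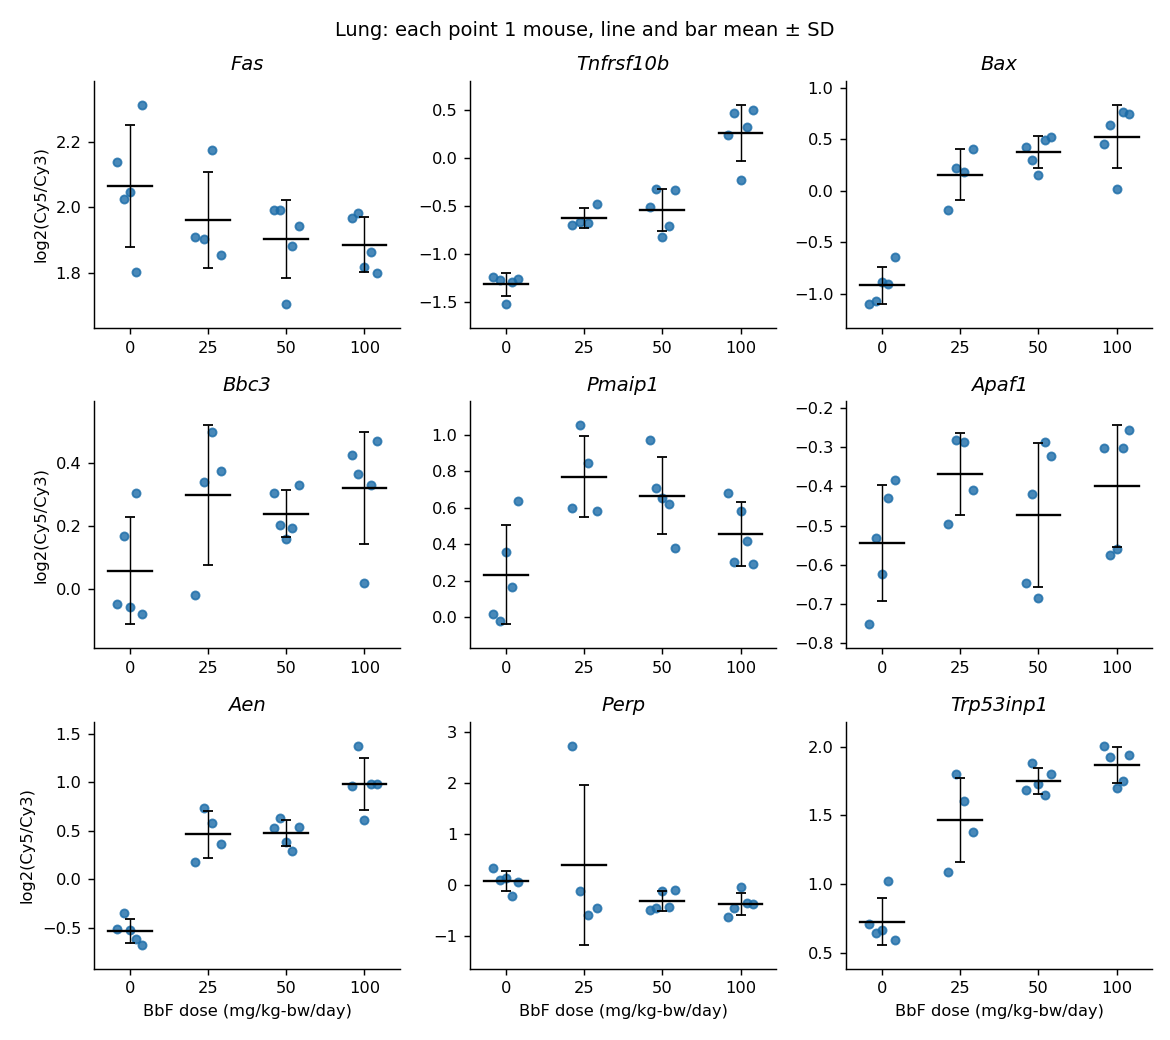
Log2(Cy5/Cy3) of the 9 genes in lung (y axes, scaled per gene) against the dose of BbF in mg/kg-bw/day (x axes). Points are mice (5 per group, 4 at 25 mg/kg-bw/day), and lines with bars are means ± SD. Tnfrsf10b, Bax, Aen and Trp53inp1 lie above vehicle in every treated mouse, and 1 low-dose mouse has a Perp value of 2.74.

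The 2 death receptors moved differently. Tnfrsf10b, the mouse receptor for the death ligand TRAIL, stood at -1.24, -1.27, -1.52, -1.29 and -1.26 in the vehicle lungs of mice 1 to 5 and at -0.70, -0.66, -0.67 and -0.47 in the 4 low-dose lungs. The medium-dose lungs had -0.51, -0.33, -0.82, -0.71 and -0.33, and the high-dose lungs 0.24, 0.47, -0.23, 0.32 and 0.50. All high-dose mice lay above all medium-dose mice, whereas the low and medium groups overlapped. The change from vehicle was 0.69 ± 0.13 (SE), 0.78 ± 0.12 and 1.57 ± 0.12 at the 3 doses, with adjusted p of 0.00845, 0.00159 and 8.54e-08. Fas, the receptor for Fas ligand, had a vehicle mean of 2.06 and means of 1.96, 1.90 and 1.89 at the low, medium and high dose. Its groups overlapped, and at the high dose its change was -0.18 ± 0.09 (95% interval -0.36 to 0.01, adjusted p = 0.292).

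Among the BCL-2 family members, Bax, which forms pores in the outer mitochondrial membrane, was called. Its vehicle lungs stood at -1.10, -1.07, -0.88, -0.91 and -0.64. The low-dose lungs had -0.19, 0.22, 0.18 and 0.40, the medium-dose lungs 0.43, 0.29, 0.15, 0.49 and 0.52, and the high-dose lungs 0.45, 0.64, 0.02, 0.76 and 0.75. The 3 treated groups overlapped each other and none reached the vehicle range. The change was 1.07 ± 0.14, 1.296 ± 0.133 and 1.44 ± 0.13, with adjusted p of 0.000309, 2.31e-05 and 1.07e-06. Bbc3 (PUMA) and Pmaip1 (Noxa) are BH3-only proteins, which set off Bax and its relative Bak1. Bbc3 changed by 0.24 ± 0.11, 0.18 ± 0.10 and 0.26 ± 0.10, with adjusted p of 0.498, 0.451 and 0.142, and overlapped with vehicle at each dose.

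Pmaip1 had its highest mean at the low dose. The vehicle lungs stood at 0.02, -0.02, 0.36, 0.16 and 0.64, the low-dose lungs at 0.60, 1.05, 0.85 and 0.58, the medium-dose lungs at 0.97, 0.71, 0.65, 0.62 and 0.38 and the high-dose lungs at 0.68, 0.30, 0.58, 0.42 and 0.29. Vehicle mouse 5 lay within the range of each treated group, and mouse 3 within that of the high-dose group. The changes of 0.54 ± 0.14, 0.43 ± 0.13 and 0.22 ± 0.13 did not pass (adjusted p = 0.0849, 0.0934 and 0.388). Without mouse 5 the low-dose change was 0.64 ± 0.13 with an adjusted p of 0.0234, which passed.

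Of the pair that acts after the mitochondria, Aen rose and Apaf1 was not called. Aen, the apoptosis-enhancing nuclease, which takes part in the breakdown of DNA in dying cells, stood at -0.51, -0.35, -0.52, -0.61 and -0.67 in the vehicle lungs and at 0.18, 0.74, 0.58 and 0.36 in the low-dose lungs. The medium-dose lungs had 0.53, 0.63, 0.39, 0.29 and 0.54, and the high-dose lungs 0.96, 1.38, 0.61, 0.98 and 0.98. No treated mouse reached the vehicle range, and the medium-dose values all lay within the range of the low-dose ones. Its change was 0.997 ± 0.126, 1.01 ± 0.12 and 1.51 ± 0.12 (adjusted p = 0.000192, 0.000104 and 1.28e-07). A second probe of Aen gave 0.93, 0.97 and 1.48 and was called at the same 3 doses. Apaf1, the scaffold of the apoptosome on which caspase-9 is activated, had means of -0.54, -0.37, -0.47 and -0.40 from vehicle to the high dose, and its high-dose change of 0.15 ± 0.10 (95% interval -0.05 to 0.34) had an adjusted p of 0.465.

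Trp53inp1, a nuclear protein that takes part in p53 phosphorylation and in autophagy, stood at 0.71, 0.64, 0.67, 1.02 and 0.59 in the vehicle lungs. The low-dose lungs had 1.08, 1.80, 1.60 and 1.38, the medium-dose lungs 1.69, 1.88, 1.73, 1.65 and 1.80 and the high-dose lungs 2.01, 1.93, 1.70, 1.75 and 1.94. The lowest treated value, that of low-dose mouse 6, was close to the highest vehicle value, that of mouse 4. The changes were 0.74 ± 0.12, 1.02 ± 0.11 and 1.14 ± 0.11, with adjusted p of 0.00192, 3.81e-05 and 1.85e-06. The 2 probes of this gene did not give the same size of change. The dimmer one gave 0.32, 0.47 and 0.43, with adjusted p of 0.3705, 0.0359 and 0.0243, and stayed under 1.5-fold at each dose.

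Perp, a membrane protein of desmosomes and a target of p53 and its relative p63, had 0.33, 0.10, 0.14, -0.20 and 0.06 in the vehicle lungs. At the low dose mouse 6 stood at 2.74, and the other mice at -0.11, -0.58 and -0.44. The medium-dose lungs had -0.49, -0.45, -0.12, -0.43 and -0.09, and the high-dose lungs -0.63, -0.45, -0.04, -0.34 and -0.36. Apart from mouse 6, the treated mice overlapped with vehicle or lay below it. The change was 0.31 ± 0.42, -0.40 ± 0.40 and -0.45 ± 0.40 at the 3 doses (adjusted p = 0.910, 0.726 and 0.620). Without mouse 6 the low-dose change was -0.46 ± 0.14 (adjusted p = 0.237).

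Mouse 6 carried transcripts of stratified epithelium in its lung sample. Krt4 was 5.73 there against -0.16 to 0.36 on the other lung arrays, and Krt13 was 4.17 against -2.21 to -0.90. All 4 keratins were well above background on this array. Perp and the keratins were both high in the forestomach arrays and in mouse 6. In the 12 arrays of liver slides 1 and 2 Perp lay at 2.17 to 2.94, a range that holds the 2.74 of mouse 6, with keratin means of -0.53 to -0.33. The part of these transcripts in the other 8 genes of mouse 6 was not tested. Without this mouse 4 of the 9 genes were called in low-dose lung, an alternative chosen after the data were seen. The share of all genes called without this mouse was not counted.

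**Figure D2:**
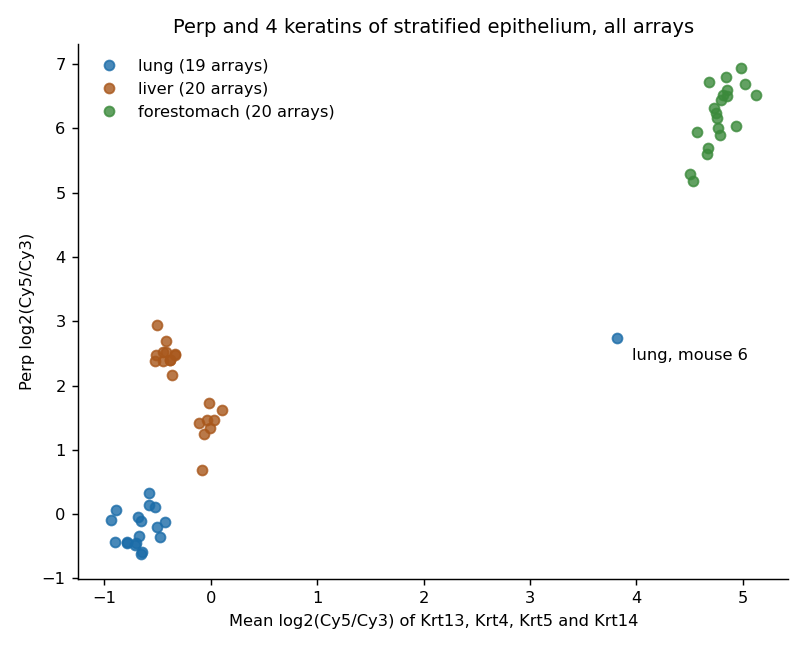
Perp log2(Cy5/Cy3) (y axis) against the mean log2(Cy5/Cy3) of the keratins Krt13, Krt4, Krt5 and Krt14 (x axis), with 1 point per array (19 lung, 20 liver, 20 forestomach). The lung array of low-dose mouse 6 lies at a keratin mean of 3.82 and a Perp value of 2.74, apart from the 18 other lung arrays.

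Between neighbouring doses in lung, Tnfrsf10b was the 1 gene of the 9 called. It rose by 0.80 ± 0.12 (1.74-fold, adjusted p = 0.00290) from the medium to the high dose, a step at which 0.229% of all genes were called. Aen gave 0.51 ± 0.12 at that step with an adjusted p of 0.0827, its second probe 0.51 ± 0.10 with 0.0322 but under 1.5-fold, and 4 of the 5 high-dose mice lay above all medium-dose mice. The exception was mouse 18, which also had the lowest high-dose values of Bax, Tnfrsf10b and Trp53inp1. Without it the Aen step was 0.60 ± 0.11 (adjusted p = 0.0129) and passed. For Bax and Trp53inp1 the step was 0.15 ± 0.13 and 0.11 ± 0.11, with intervals of -0.13 to 0.42 and -0.11 to 0.34. From the low to the medium dose none of the 9 genes was called, as was none of all genes (0%). At an unadjusted p under 0.05 from limma there were 1 of the 9 genes, Trp53inp1 (0.28 ± 0.12, adjusted p = 0.991), and 1795 of all genes.

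**Figure D3:**
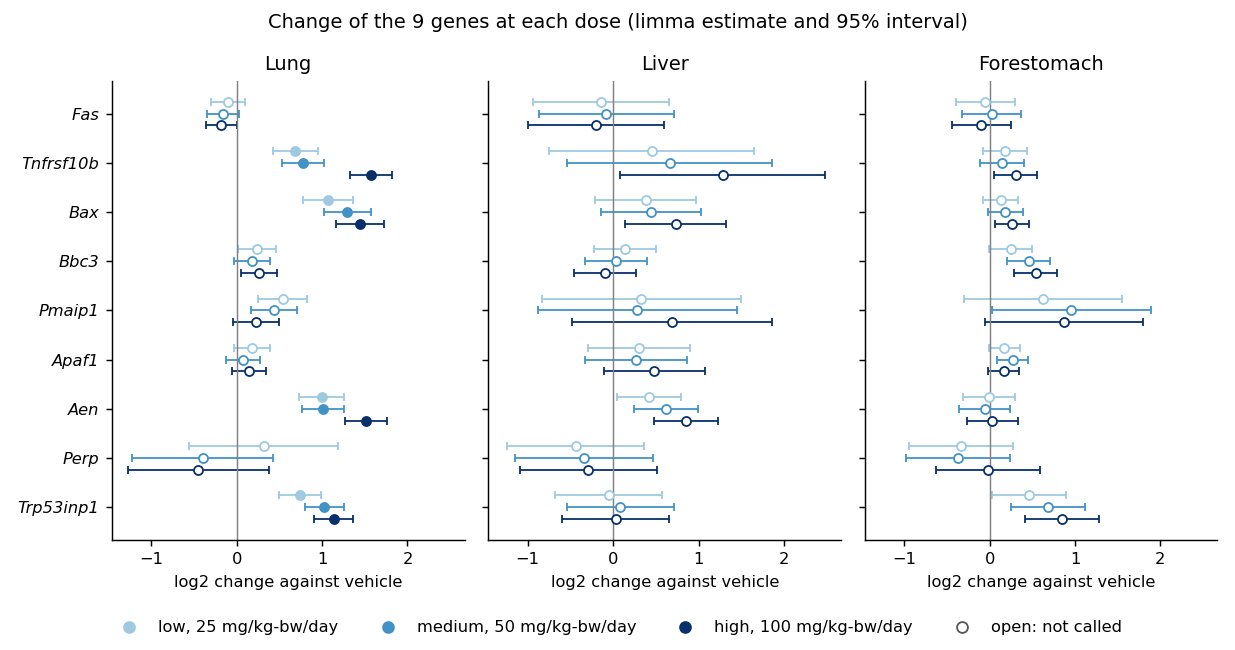
Change of the 9 genes against vehicle in log2 units (x axes) in lung, liver and forestomach, for doses of 25, 50 and 100 mg per kg body weight and day. Points are limma estimates with 95% intervals, filled where the gene was called. The 12 filled points are those of Tnfrsf10b, Bax, Aen and Trp53inp1 in lung.

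In liver none of the 9 genes was called at any dose with all 20 arrays. Over all genes the calls were 0% (low), 0% (medium) and 0.00538% (high), and 0% at both steps between neighbouring doses, where no member passed either. At an unadjusted p under 0.05 from limma there were 1, 1 and 3 of the 9 genes against vehicle, beside 3.3%, 4.55% and 8.09% of all genes. At the high dose 6 of the 9 genes had an estimate above vehicle, led by Tnfrsf10b (1.28 ± 0.57), Aen (0.86 ± 0.18) and Bax (0.73 ± 0.28), with adjusted p of 0.645, 0.150 and 0.572. Pmaip1 gave 0.69 ± 0.56, Apaf1 0.48 ± 0.28 and Trp53inp1 0.03 ± 0.30. Bbc3, Fas and Perp gave -0.09 ± 0.17, -0.20 ± 0.38 and -0.29 ± 0.38.

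Liver slide 3 gave values close to 0 for most of these genes whatever the dose. Fas lay between -0.10 and 0.26 on its 8 arrays, and between 0.89 and 1.57 on the 12 arrays of slides 1 and 2. Tnfrsf10b lay between -0.43 and 0.25 on slide 3 and between -2.42 and -1.09 on the others, and Bax between -0.35 and -0.09 against -1.45 to -0.56. Fas, Tnfrsf10b, Pmaip1 and Apaf1 were not well above background on any of its 8 arrays. Because the slide held 3 of the 5 high-dose mice and 1 of the 5 vehicle mice, its values entered the 2 groups unequally. The plot of liver values by slide shows both levels.

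**Figure D4:**
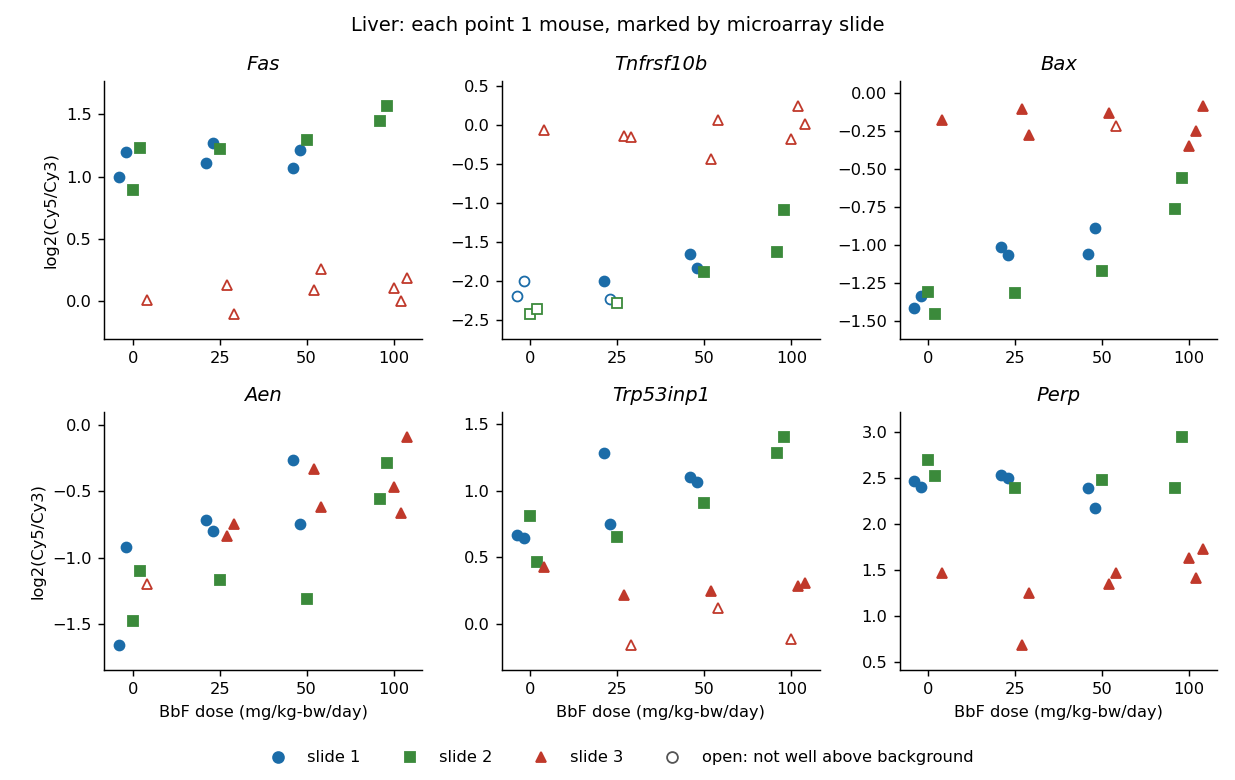
Log2(Cy5/Cy3) of 6 of the genes in liver (y axes, scaled per gene) against the dose of BbF in mg/kg-bw/day (x axes), 1 point per mouse. Circles, squares and triangles are slides 1, 2 and 3, and open symbols were not well above background. On slides 1 and 2 the 2 high-dose mice, both on slide 2, lie above the 4 vehicle mice for Fas, Tnfrsf10b, Bax, Aen and Trp53inp1. The slide 3 values of Fas, Tnfrsf10b, Bax and Perp form a level of their own.

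Without slide 3, which leaves 4 mice on vehicle, 3 each on the low and medium doses and 2 on the high dose, 3 of the 9 genes rose in liver at the high dose, where 0.969% of all genes were called. Bax stood at -1.31, -1.45, -1.42 and -1.33 in the vehicle mice 1 to 4 and at -0.77 and -0.56 in high-dose mice 16 and 17, a change of 0.71 ± 0.11 (adjusted p = 0.00700). Tnfrsf10b stood at -2.42, -2.36, -2.19 and -1.997 against -1.62 and -1.09, a change of 0.89 ± 0.15 (adjusted p = 0.0105). Trp53inp1 stood at 0.81, 0.46, 0.67 and 0.65 against 1.28 and 1.40, a change of 0.70 ± 0.15 (adjusted p = 0.0324). In all 3 genes both high-dose mice lay above the 4 vehicle mice, and the share of all genes separated in this way was not counted. Fas changed by 0.43 ± 0.11 (adjusted p = 0.0851), and its direction turned from that with all arrays. At the medium dose none of the 9 was called, beside 0.490% of all genes.

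Aen was the gene with the same change on both sides of that split. Its vehicle livers stood at -1.47, -1.10, -1.65, -0.92 and -1.20 and its high-dose livers at -0.56, -0.29, -0.47, -0.66 and -0.09, so that no high-dose mouse reached the vehicle range. The change was 0.86 within slide 2 (2 mice against 2) and 0.79 within slide 3 (3 against 1). With the slide as a block, 0.320% of all genes and Aen alone among the 9 were called at the high dose, at 0.86 ± 0.16 (adjusted p = 0.0129). Without slide 3 the change was 0.86 ± 0.24 with an adjusted p of 0.0994. Bax differed by 0.72 within slide 2 and by -0.05 within slide 3, and Tnfrsf10b by 1.04 and 0.09.

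Tnfrsf10b, Pmaip1 and Apaf1 were not well above background on any vehicle liver. At the high dose 2, 1 and 1 of the 5 livers measured them. The sizes given for these 3 genes in liver are therefore differences from values at background level.

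In forestomach none of the 9 genes was called at any dose, beside 0% (low), 0% (medium) and 0.0996% (high) of all genes. At an unadjusted p under 0.05 from limma there were 1, 4 and 4 of the 9, beside 4.67%, 5.83% and 9% of all genes. The neighbouring steps called no member either, with 0.00269% of all genes from low to medium and 0% from medium to high. Bbc3 was called in neither lung nor forestomach, and its medium-dose and high-dose forestomach values lay above those of vehicle. Its vehicle values were -1.95, -2.12, -1.75, -1.84 and -1.73. The medium-dose values were -1.24, -1.57, -1.27, -1.31 and -1.72, and the high-dose ones -1.50, -1.31, -1.40, -1.28 and -1.19. No mouse of either group fell into the vehicle range, though the lowest medium-dose value was close to it. The change was 0.25 ± 0.12, 0.46 ± 0.12 and 0.54 ± 0.12 at the 3 doses, under 1.5-fold each time, with adjusted p of 0.976, 0.759 and 0.109. The high-dose change of Bbc3 in lung minus that in forestomach was -0.28 and was not called.

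Trp53inp1 gave the widest well-measured estimate in forestomach. The vehicle mice stood at -0.92, -1.65, -0.59, -0.998 and -0.37, and the high-dose mice at -0.44, -0.07, 0.04, -0.26 and 0.41. Of the 5 high-dose values, 4 were above the vehicle range. The change was 0.46 ± 0.21, 0.69 ± 0.21 and 0.84 ± 0.21, with adjusted p of 0.976, 0.803 and 0.160. Pmaip1 was scattered, from -2.27 to -0.35 in vehicle, where 2 of 5 arrays measured it, and from -1.12 to -0.04 at the high dose, where all 5 did, a change of 0.87 ± 0.44 (adjusted p = 0.607).

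The genes that rose most in lung changed little in forestomach. Aen stood between -0.53 and 0.26 in vehicle and between -0.36 and 0.14 at the high dose, a change of 0.03 ± 0.14 (95% interval -0.27 to 0.33). Bax changed by 0.26 ± 0.10 (0.06 to 0.47, adjusted p = 0.418) and Tnfrsf10b by 0.30 ± 0.12 (0.05 to 0.56, adjusted p = 0.464). Apaf1 gave 0.17 ± 0.09 (0.27 ± 0.09 at the medium dose, where all mice lay above vehicle, adjusted p = 0.841), Perp -0.02 ± 0.29 and Fas -0.10 ± 0.17.

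The difference between tissues was tested directly at the high dose. The change in lung exceeded that in forestomach by 1.48 ± 0.19 for Aen, 1.27 ± 0.18 for Tnfrsf10b and 1.18 ± 0.17 for Bax, with adjusted p of 1.25e-05, 3.84e-05 and 7.68e-05. These were the 3 of 9 genes called, beside 0.912% of all genes. Trp53inp1, which was called in lung and not in forestomach, did not differ beyond its error from forestomach (0.29 ± 0.24, 95% interval -0.20 to 0.79, adjusted p = 0.786).

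Between lung and liver none of the 9 passed with all arrays, beside 0.385% of all genes, and 3 had an unadjusted p under 0.05 in limma, as had 10.8% of all genes. The lung change exceeded the liver change by 1.11 ± 0.33 for Trp53inp1, 0.71 ± 0.32 for Bax, 0.66 ± 0.22 for Aen and 0.29 ± 0.60 for Tnfrsf10b (adjusted p = 0.169, 0.456, 0.255 and 0.881). With the slide as a block, Trp53inp1 (0.79), Tnfrsf10b (0.92) and Bax (0.97) were called, with adjusted p of 0.0213, 0.00475 and 0.000333, beside 1.60% of all genes. Tnfrsf10b was not well above background on any vehicle liver or on slide 3, so the size of its difference is not measured. Without liver slide 3 1 gene was called, beside 1.31% of all genes. It was Fas, whose change in lung was 0.61 lower than that in liver. Between liver and forestomach none of the 9 was called, beside 0.0377% of all genes, and 3 had an unadjusted p under 0.05, as had 7.27% of all genes.

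Among vehicle mice, Perp spanned the widest range of levels over the tissues, and Bax and Tnfrsf10b were called in no pair of tissues with all arrays. Perp stood at -0.20 to 0.33 in lung, 1.46 to 2.69 in liver and 6.00 to 6.93 in forestomach, and no 2 tissues overlapped. Lung minus forestomach was -6.30 ± 0.37, liver minus forestomach -4.08 ± 0.35 and lung minus liver -2.22 ± 0.42 (adjusted p = 1.34e-16, 9.44e-12 and 3.92e-05). Of the 8 desmosome genes set beside it, the mean in vehicle mice lay at 0.43 to 0.60 in lung, 0.22 to 1.11 in liver and 2.91 to 3.42 in forestomach.

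**Figure D5:**
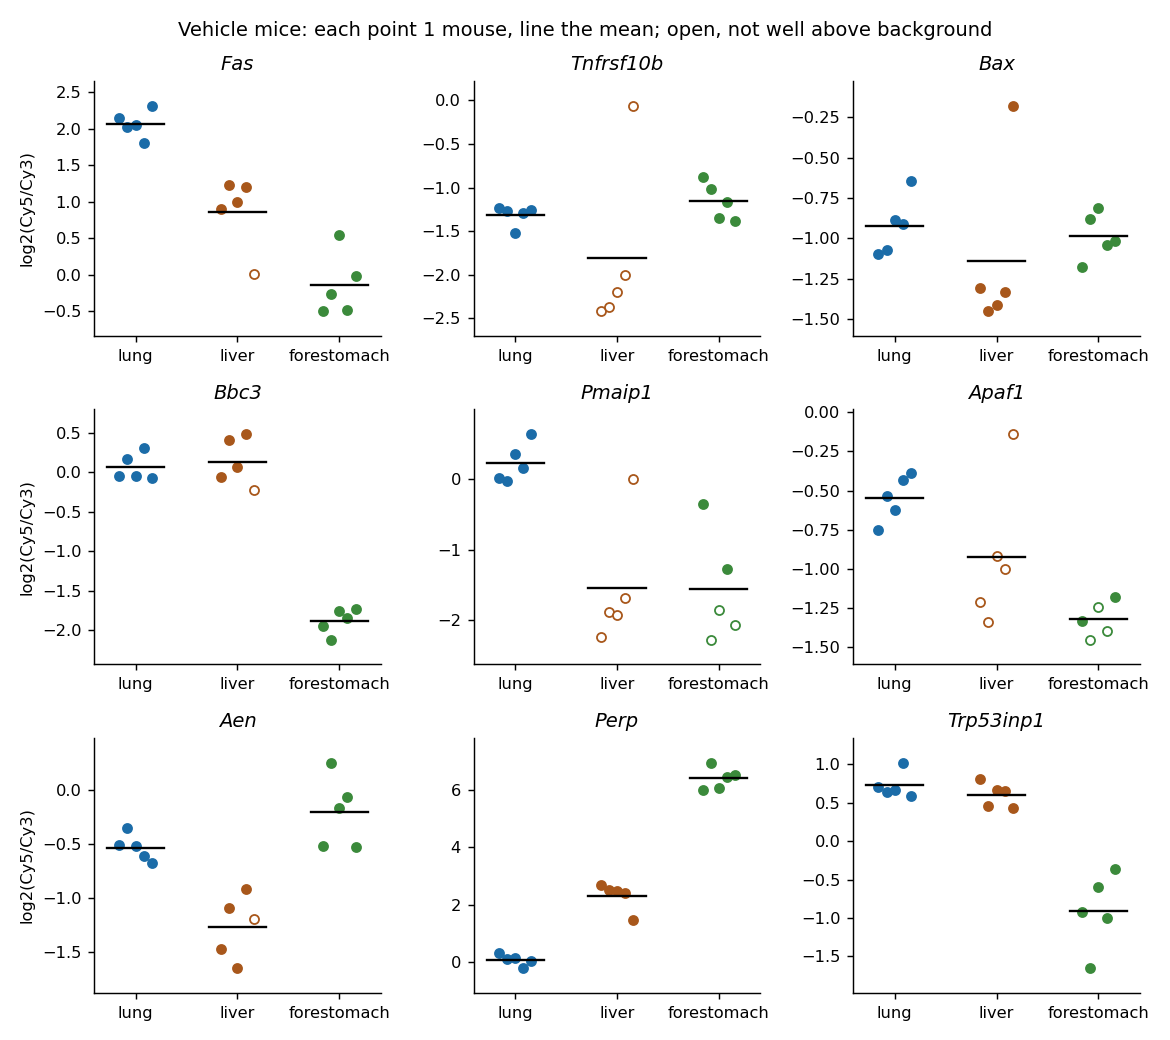
Log2(Cy5/Cy3) of the 9 genes in vehicle mice (y axes, scaled per gene) in lung, liver and forestomach, with 1 point per mouse (5 per tissue) and a line at the mean. Open points were not well above background. Perp is highest in forestomach, Fas in lung by mean, and 1 liver array (mouse 5, slide 3) stands apart from the others for Fas, Tnfrsf10b, Bax and Pmaip1.

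Between vehicle lung and forestomach 6 of the 9 genes were called, beside 23.7% of all genes. Besides Perp, these were Fas, higher in lung by 2.21 ± 0.14, Bbc3 by 1.94 ± 0.11, Pmaip1 by 1.79 ± 0.34, Trp53inp1 by 1.63 ± 0.17 and Apaf1 by 0.78 ± 0.09. No vehicle lung overlapped with a vehicle forestomach in these 5 genes. Aen had the opposite order, with means of -0.53 in lung and -0.20 in forestomach, which did not pass (adjusted p = 0.0567). Bax and Tnfrsf10b, with means of -0.92 and -1.31 in lung and -0.98 and -1.16 in forestomach, did not differ beyond their spread (95% intervals -0.18 to 0.31 and -0.41 to 0.10).

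Between vehicle lung and liver 4 of the 9 genes were called, beside 27.8% of all genes: Perp, Fas (higher in lung by 1.20 ± 0.28), Pmaip1 (by 1.77 ± 0.42) and Aen (by 0.74 ± 0.16). Pmaip1 was not well above background in vehicle liver, so its size is not measured. Without slide 3 the 5 called genes were these 4 and Tnfrsf10b (adjusted p = 2.97e-07), beside 11509 of all 37163 genes. Tnfrsf10b was not well above background in vehicle liver either. For each of the 5 vehicle livers a baseline was taken. It was the lowest Cy5 signal that counted as measured, or the gene's own signal where that was higher. The mean Cy5 signal of Tnfrsf10b was 1.38-fold (lung) and 1.63-fold (forestomach) above the mean baseline, with no allowance for spread. Neither difference in log2 ratio was called with all arrays (adjusted p = 0.420 and 0.286). Between vehicle liver and forestomach 5 of the 9 were called, beside 22.6% of all genes. Bbc3 was higher in liver by 2.01 ± 0.15, Trp53inp1 by 1.51 ± 0.26 and Fas by 1.01 ± 0.30, and Aen and Perp were lower in liver, Aen by 1.07 ± 0.17. The Fas call was lost without mouse 2 (adjusted p = 0.0581) or mouse 4 (0.0718). Without mouse 5 Tnfrsf10b was called as well, lower in liver (adjusted p = 0.0394), and so it was without slide 3 (adjusted p = 4.15e-08). Of all 37163 genes, 9837 were called between vehicle liver and forestomach without slide 3.

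From the order of the tissues, Fas stood highest in lung, then liver, then forestomach, and each neighbouring pair was called. Bbc3 and Trp53inp1 stood at like levels in lung and liver (95% intervals of the difference -0.37 to 0.22 and -0.35 to 0.60) and lower in forestomach. Apaf1 was higher in lung than in forestomach, and was not well above background in vehicle liver. With all arrays its liver value differed from neither beyond the spread, and without slide 3 lung exceeded liver by 0.57 ± 0.10 (adjusted p = 1.58e-05), under 1.5-fold.

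The genes that regulate or act beside the 9 were described from lists of the same pathway, also chosen with earlier results of these data known. Of 22 other p53 targets, which serve mainly arrest, feedback and repair, 4, 5 and 10 rose in lung as the dose went from low to high, none fell, and the list's median change was 0.22, 0.27 and 0.29. The 4 largest at the high dose were Gdf15, a secreted stress cytokine (3.101 ± 0.279), Cdkn1a, the p21 inhibitor of cyclin-dependent kinases (2.66 ± 0.21), Phlda3, an inhibitor of Akt signalling (1.91 ± 0.13), and the cyclin Ccng1 (1.47 ± 0.16), with adjusted p of 7.53e-07, 1.34e-07, 2.23e-08 and 6.79e-06. None of the 22 was called in liver with all arrays or in forestomach. Without slide 3 4 rose in high-dose liver: Cdkn1a (1.74), Phlda3 (1.37), Ccng1 (1.02) and Ddit4l (0.82).

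The p53 family itself (Trp53, Trp63, Trp73) had no call at any dose in the 3 tissues, with lung high-dose changes of -0.38 to -0.06. Of 12 other BCL-2 family genes, none was called at any dose in any tissue with all arrays, and their high-dose changes in lung ran from -0.35 to 0.45 with a median of 0.02. Without liver slide 3, Bok (0.61 ± 0.13) was called in high-dose liver. The 10 death ligands, receptors and adaptors besides Fas and Tnfrsf10b had none either, with lung high-dose changes of -0.21 to 0.54.

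Of 13 caspases, apoptosome partners and inhibitors, 1 was called in lung. It was Birc5, known as survivin, a protein of dividing cells that is grouped with the inhibitors of apoptosis. Birc5 rose at the low and medium doses, by 2.08 ± 0.20 and 1.59 ± 0.19 (adjusted p = 1.13e-05 and 0.000153), and fell by 1.03 ± 0.19 on the log2 scale from the medium to the high dose (adjusted p = 0.0207). The proliferation markers Mki67 and Top2a rose at the same 2 doses, Mki67 by 2.13 ± 0.20 and 1.65 ± 0.19. Without liver slide 3, Birc5 (2.83 ± 0.52), Mki67 (1.83 ± 0.38) and Cdh5 (0.83 ± 0.12) were also called in high-dose liver. Top2a (0.82 ± 0.23) and Pecam1 (0.25 ± 0.105) were not called there (adjusted p = 0.101 and 0.342). That comparison holds 2 high-dose mice. The endothelial markers Pecam1 and Cdh5 rose in high-dose lung by 0.74 ± 0.14 and 0.82 ± 0.20. The part of these cells in the changes of the 9 genes was not tested.

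Over the 19 lung arrays the genes with the pattern most like the mean of the 9 (each gene centred and scaled) were Gdf15 (Pearson r = 0.954), Ces2e (0.920), Bcl6b (0.917), Olfr1229 (0.911) and Cdkn1a (0.903). These r values describe arrays that share dose groups and carry no test. Ces2e, a carboxylesterase, changed by 2.14 ± 0.20, 2.35 ± 0.19 and 2.65 ± 0.19 in lung at the 3 doses and was not called in liver or forestomach.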

How the data were processed

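Median spot intensity was read from the scanner output the authors deposited, in Cy5 (tissue) and Cy3 (reference) from Agilent SurePrint G3 Mouse two-colour arrays without dye swap. The authors also deposited processed log2 ratios of the same arrays, whose columns correlated with the ratios computed here at r of 0.967 to 0.999 and which served as an alternative. Their medians lay between -0.041 and -0.0072, and how they were centred is not given in the sources used here.

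Intensities were left without background correction and normalized by loess within each array with limma 3.58.1 (R 4.3.3), as the methods of the study do. Control and non-uniform spots were left out, and repeated spots were averaged to 55681 probes. Accessions gave 20018 symbols through RefSeq (GRCm38.p6, used for names and promoters only, since the array design states another build). A gene is represented by its brightest probe.

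Limma's moderated test, 2-sided, was fitted per tissue over the 4 dose groups and, for differences between tissues, over both tissues. It stands in for the Fs statistic of the study, which was not run. The call was a Benjamini-Hochberg adjusted p of at most 0.05 over all probes and a change of at least 1.5-fold. All 9 genes are named, with at most 4 called genes of a list. Labels number mice alike in all tissues, so that the same number is the same animal, and the mouse as a block was an alternative in comparisons between tissues. The fits were tested on simulated data. The other alternatives were any probe of a gene, median centring, normexp background correction, a filter on dim probes, the slide as a block, leaving out the dimmest liver slide and leaving out each mouse. The genes and lists were chosen with earlier results of these data known.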

Additional observations from a re-analysis of the deposited data

Results flagged for a closer look

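Of the 108 groups of 4 or 5 mice formed by the 9 genes, 9 had a highest or lowest mouse whose gap to its neighbour was large against the range of the group (Dixon's 95% limit). Chance flags about 1 in 20 groups. In vehicle liver, mouse 5 was such a mouse for 5 genes: Fas (0.0061), Tnfrsf10b (-0.062), Bax (-0.18), Pmaip1 (0.0095) and Perp (1.46). It is the 1 vehicle mouse on liver slide 3, where the share of probes above background was 10.71% to 12.88%. The others were Perp in low-dose lung of mouse 6 (2.74), Tnfrsf10b in vehicle lung of mouse 3 (-1.52), Trp53inp1 in vehicle lung of mouse 4 (1.02) and Aen in low-dose liver of mouse 7 (-1.16).

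The high-dose change differed between lung and forestomach by the test of the difference itself for Aen (1.48), Tnfrsf10b (1.27) and Bax (1.18), with the larger change in lung.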

How the results depend on the processing

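Bax, Aen, Tnfrsf10b and Trp53inp1 were called in lung at each dose under normexp, median centring, the deposited ratios, the filter on dim probes and the slide block. Median centring added Pmaip1 at the low dose and Bbc3 at the high dose (0.69, adjusted p = 0.00111). Aen, Bax and Tnfrsf10b differed between lung and forestomach in the same settings and with the mouse block. With the mouse as a replicate block the counts of the 9 genes between tissues were the same. They were 3, 0 and 0 for the high-dose change and 6, 4 and 5 for the vehicle level. Their order is lung and forestomach, lung and liver, liver and forestomach, and no other call of the 9 genes changed. In that order the block called 365, 100 and 6 of all 37163 genes for the high-dose change. For the vehicle level it called 8827, 10254 and 8350 of them. The count in high-dose liver moved from 0 to 1 with the slide block, 1 with the filter on dim probes (Aen, adjusted p = 0.0443) and 3 without the dimmest liver slide, and that between lung and liver from 0 to 3 with the slide block and 1 without the dimmest slide. With the filter on dim probes, 26 of the 6332 genes tested were called in high-dose liver. Median centring called 2 genes in high-dose forestomach, Trp53inp1 (1.05, adjusted p = 0.0223) and Bbc3 (0.79, 0.0424), and 1 gene in the vehicle comparisons of lung with liver and of liver with forestomach, in place of 4 and 5. In each case the cause was not tested. Median centring shifted the median of all genes in high-dose liver by -0.12 and left 1 of the 9 genes above vehicle there, and it raised the calls over all genes in high-dose lung from 656 to 3021 (2990 higher) and in high-dose forestomach from 37 to 131. It lowered the calls over all genes from 10329 to 4355 for vehicle lung against liver. For vehicle liver against forestomach they fell from 8412 to 3348.

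Leaving out 1 mouse at a time gave 4 to 5 genes in low-dose lung, 1 to 2 from the medium to the high dose in lung, and 4 to 6 for vehicle liver against forestomach. The shares of all genes called in these fits were not counted. The other counts did not move.

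Median centring also moved the number of the 9 genes whose high-dose changes differed by more than 0 from 6 to 9 for lung minus liver, from 4 to 6 for lung minus forestomach and from 4 to 1 for liver minus forestomach. Uncalled high-dose changes from vehicle that changed sign were these. In lung, median centring gave 0.24 for Fas and 0.033 for Perp. In liver, median centring gave -1.01 for Trp53inp1, -0.22 for Pmaip1, -0.64 for Bax, -0.25 for Apaf1 and -0.90 for Aen, the slide block gave 0.25 for Fas, 0.033 for Bbc3 and 0.16 for Perp, leaving out the dimmest slide gave 0.43 for Fas and 0.14 for Perp, and the deposited ratios gave -0.016 for Trp53inp1. In forestomach, median centring gave 0.16 for Fas and 0.33 for Perp, and the deposited ratios gave 0.0065 for Perp. Leaving out 1 mouse moved Trp53inp1 in liver between -0.16 and 0.22, and in forestomach Fas between -0.19 and 0.075, Perp between -0.12 and 0.12 and Aen between -0.048 and 0.15, and moved Tnfrsf10b between lung and liver between -0.13 and 0.50. Depth limits the arrays of liver slide 3 most, where 4 of the 9 genes were not above background on any array.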
